A study of Drosophila melanogaster with 3 samples.

Results

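The genes described here are the proneural genes of Drosophila melanogaster and the genes that act directly with them in sense organ formation: achaete (ac), scute (sc), lethal of scute (l(1)sc), asense (ase), atonal (ato), amos, senseless (sens), daughterless (da) and extramacrochaetae (emc). They were taken as a list of 9 genes among the 13945 protein-coding genes annotated on chromosomes 2L, 2R, 3L, 3R, 4 and X. Binding of the protein CG10669 was read at each of them as every reproducible peak whose summit lay in the gene body or within 10 kb of it. The space between the achaete-scute genes was read as well. This gave 22 summits at the 9 genes, and 5 further summits between ac and ase, out of 7248 in the genome.

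The experiment was chromatin immunoprecipitation with sequencing (ChIP-seq), which recovers and sequences the DNA fragments bound by a protein. Its single group was whole prepupae, the stage at which metamorphosis begins, with males and females pooled, from a stable transgenic line whose CG10669 protein is fused at its C-terminus to green fluorescent protein (GFP), in 3 biological replicates. Chromatin was sonicated to 200 to 800 bp, there was no second condition, and the 3 replicates were called against a shared control file, whose part in their likeness was not tested. The promoter that drives the fusion is not given in the sources used here. For the antibody, the label names CG10669 and not the tag, and the sample descriptions use the words for an input control. The peak files were treated here as those of the immunoprecipitation. The samples also carry an age label that conflicts with the prepupal stage. That label was set aside, and the stage was taken to be prepupa. Whole animals mix many tissues, so a peak present in few cells and a weak peak present in many cannot be told apart. The peak lists carry no read totals, so the depth was unknown.

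Proneural genes encode basic helix-loop-helix (bHLH) transcription factors that give ectodermal cells the ability to become neural precursors. They bind DNA as dimers with the widely expressed bHLH protein Daughterless, at sites called E-boxes. The helix-loop-helix protein Extramacrochaetae lacks the basic region that contacts DNA and holds proneural proteins and Daughterless in inactive dimers, while the zinc finger protein Senseless raises proneural activity in the selected precursor cell. The achaete-scute genes lie in a row on X and are known for long stretches of regulatory DNA between them, and the precursors of the adult bristles that depend on them arise around the time of pupariation.

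The 200-base windows around 8 summits are printed, from those that do not overlap an annotated exon. They are those of the strongest summit and both downstream summits of emc, the strongest of ac and the only summit shared by sc and l(1)sc. The others are the strongest in the space between l(1)sc and ase, the summit of ase and the strongest of sens. Each window runs from 99 bases before to 100 bases after the summit on the plus strand of the dm6 genome, read from the RefSeq Release 6 sequence. The emc windows are chr3L:746444-746643, chr3L:760259-760458 and chr3L:762401-762600, and the sens window is chr3L:13406994-13407193. The windows on X are chrX:361540-361739, chrX:406392-406591, chrX:444082-444281 and chrX:452833-453032. Capitals mark E-boxes (CANNTG, where N is any base) and the 10 words of 7 letters most over-represented at all summits of the series. None of the printed windows overlaps an annotated exon.
emc upstream: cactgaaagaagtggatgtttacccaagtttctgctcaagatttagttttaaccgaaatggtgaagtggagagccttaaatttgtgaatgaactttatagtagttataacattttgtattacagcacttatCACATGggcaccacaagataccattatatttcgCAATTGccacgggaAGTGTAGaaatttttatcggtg
emc downstream, nearer: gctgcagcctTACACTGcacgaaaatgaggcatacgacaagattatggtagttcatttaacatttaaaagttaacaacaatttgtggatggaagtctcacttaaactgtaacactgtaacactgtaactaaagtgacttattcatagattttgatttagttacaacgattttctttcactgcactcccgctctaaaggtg
emc downstream, farther: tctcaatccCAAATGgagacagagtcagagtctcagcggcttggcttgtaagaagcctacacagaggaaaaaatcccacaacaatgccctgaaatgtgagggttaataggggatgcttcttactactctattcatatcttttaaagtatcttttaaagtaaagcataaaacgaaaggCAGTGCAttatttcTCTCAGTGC
ac upstream: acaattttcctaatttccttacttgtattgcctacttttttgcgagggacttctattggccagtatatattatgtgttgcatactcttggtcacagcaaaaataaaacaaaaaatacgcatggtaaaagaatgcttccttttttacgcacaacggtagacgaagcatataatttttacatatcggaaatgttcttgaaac
sc and l(1)sc: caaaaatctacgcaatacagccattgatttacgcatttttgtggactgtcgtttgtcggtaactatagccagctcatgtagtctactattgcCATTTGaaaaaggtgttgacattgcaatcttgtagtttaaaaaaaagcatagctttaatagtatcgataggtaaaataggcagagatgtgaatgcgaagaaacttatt
l(1)sc to ase space: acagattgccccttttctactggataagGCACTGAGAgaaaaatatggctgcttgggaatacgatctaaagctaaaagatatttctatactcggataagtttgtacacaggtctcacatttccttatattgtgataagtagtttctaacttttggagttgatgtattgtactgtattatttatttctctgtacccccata
ase upstream: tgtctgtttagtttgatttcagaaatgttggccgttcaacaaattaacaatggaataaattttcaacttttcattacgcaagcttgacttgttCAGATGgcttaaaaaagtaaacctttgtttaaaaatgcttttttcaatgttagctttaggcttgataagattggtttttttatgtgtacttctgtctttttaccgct
sens upstream: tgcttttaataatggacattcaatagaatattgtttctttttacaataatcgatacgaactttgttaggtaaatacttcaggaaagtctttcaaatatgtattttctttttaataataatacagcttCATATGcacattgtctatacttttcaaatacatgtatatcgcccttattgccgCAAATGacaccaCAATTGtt

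Reproducible CG10669-GFP summits lay in the body of a gene or within 10 kb for 8 of the 9 genes, and ato had none. Of all protein-coding genes, 61.1% had such a summit, and with 9 listed genes, 4 of them side by side, the count describes these loci only. The number of summits was 10 at emc, 4 at ac, 3 at da, 2 at sens and 1 each at sc, l(1)sc, ase and amos. The median over all protein-coding genes was 1 summit and the 90th percentile was 4. A summit within 500 bp of the gene's own transcription start site (TSS) was found at da and emc, 2 of 9 genes, against 15.4% of all genes. Only emc had summits inside the gene body, 1 of 9 genes against 14.0% of all genes.

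**Figure D1:**
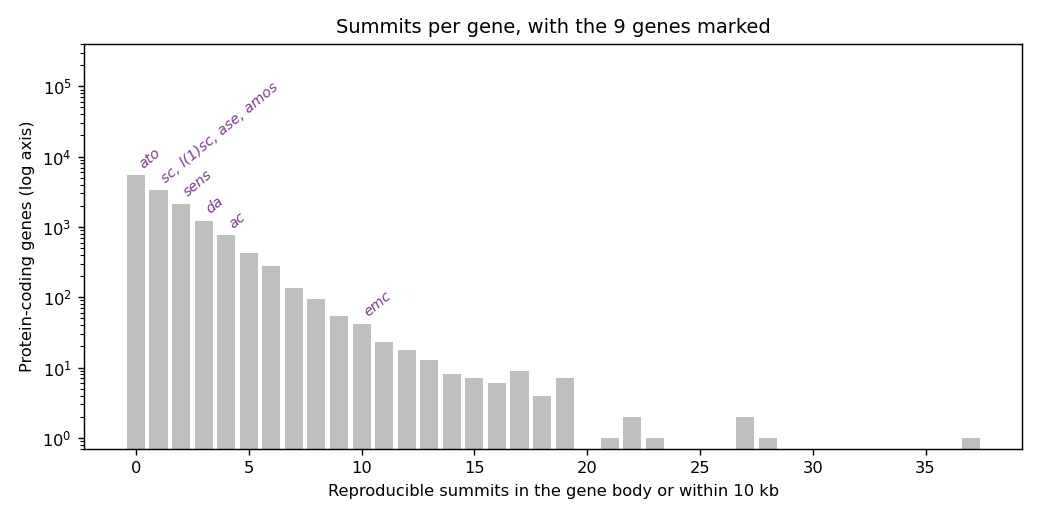
Number of protein-coding genes (log axis) by the count of reproducible summits in the gene body or within 10 kb, with the 9 genes marked above their bars. The gene emc stands at 10 summits, where 103 genes of 13945 have more, and ato stands at 0.

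The peak signal is the authors' own value per peak and has another scale in each list. Each replicate's signal was therefore divided by the median candidate signal of its list, and this relative signal is given for replicates 1, 2 and 3 in that order. Ranks run from 1, the highest signal, in lists of 30000 candidates. The strongest summit of each gene gave the order amos (21.6 ± 1.92), emc (15.3 ± 1.17), ac (6.37 ± 2.32), da (4.81 ± 3.83), sens (4.17 ± 1.40), ase (3.32 ± 1.31) and the summit shared by sc and l(1)sc (2.04 ± 0.598), as means of relative signal with SD and n = 3. The amos and emc summits did not overlap in their replicate values with each other or with the summit of any other gene. From ac to da, from da to sens, from sens to ase and from ase to the shared summit, the replicate values of neighbours in this order overlapped. The value at da rested on replicate 1: without it, this summit near mRpS7 had a mean of 2.62, below those of sens (3.55) and ase (2.86) in the same replicates, while the da summit at the CG5096 promoter had 4.23. With 3 values an exact sign permutation test cannot give a p below 0.25, so the order is a description.

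**Figure D2:**
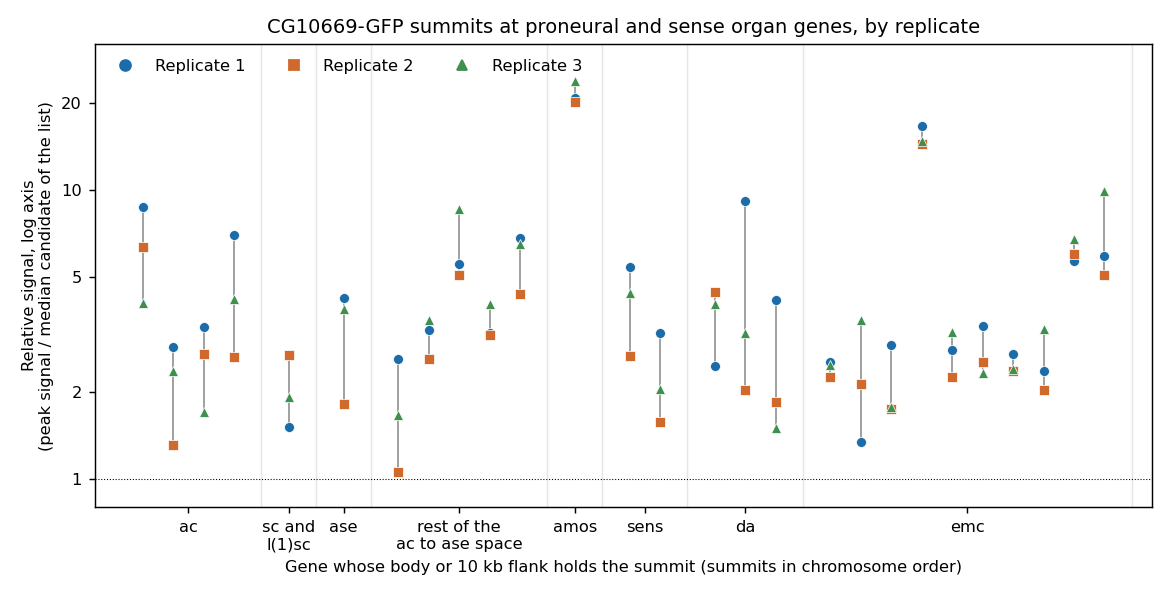
Relative signal (log axis, peak signal over the median candidate of its list) of each reproducible summit at the 9 genes and between the achaete-scute genes, in chromosome order, with a point per replicate. The amos summit and 1 emc summit stand above 14 in every replicate, and the other summits lie below 10.

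The 4 achaete-scute genes were covered by scattered summits of low to middle signal, none of them at a promoter or in the body of ac, sc, l(1)sc or ase. The stretch from the start of ac to the end of ase, chrX:370031-463176, held 9 summits in 93.1 kb, or 0.966 per 10 kb. X as a whole held 0.628 per 10 kb and the genome 0.541. All summits of the complex, with the 2 to the left of ac, were annotated as intronic, since the uncharacterised gene CG32816 on the minus strand spans the whole row of genes from 316576 to 470726.

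The gene ac (FBgn0000022, chrX:370031-370947, plus strand), whose product is a proneural factor for bristles, had 4 summits. The strongest lay 8392 bp upstream of ac in the peak chrX:361486-361753, 760 bp from the start of the non-coding gene lncRNA:yar, and its signal of 534 ranked 1789. Its relative signal was 8.71, 6.34 and 4.07, at ranks 1379, 1473 and 3345. All 3 replicates held it among their 7248 strongest candidates, although replicate 1 was about as far above replicate 2 as replicate 2 was above replicate 3. The second upstream summit, 2873 bp from the start of ac in the peak chrX:366953-367362, had 2.86, 1.32 and 2.36. Downstream of ac, the summit at 8482 bp from its start had 3.36, 2.70 and 1.70. The nearest TSS was that of lncRNA:CR44751, at 1526 bp from this summit and at 2760 bp from the next. The summit at 9716 bp in the peak chrX:379637-379883 had 6.96, 2.65 and 4.20, at ranks 1879, 4740 and 3216. At this summit the highest replicate was more than 2 times the lowest, and it was still held by all 3 lists. The other summits of ac were each held by 2 lists. At the start of ac itself only a weak pooled candidate was found, 133 bp into the gene, at rank 14535 and far below the reproducible list.

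The gene sc (FBgn0004170, chrX:396060-397497, plus strand) encodes the proneural factor that acts beside Achaete in external sense organs. The gene l(1)sc (FBgn0002561, chrX:409721-410817, plus strand) encodes the related factor known mainly from the embryonic nervous system. Both had the same single summit, in the peak chrX:406286-406695 between them, 3230 bp upstream of l(1)sc and 10431 bp from the start of sc. Its signal of 160 ranked 7013, close to the end of the reproducible list, whose lowest signal was 155. Its relative signal was 1.51, 2.69 and 1.92 at ranks 9869, 4644 and 7901, so only replicate 2 held it among its 7248 strongest candidates. The strongest candidate in the complex just outside the reproducible list lay in the space between l(1)sc and ase, at 421964, with rank 7451.

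The space between l(1)sc and ase held the strongest summits of the complex. It spans 49.9 kb and had 5 summits, 4 of them held by all 3 replicates, and contains the gene Pgcl. The strongest lay at 444181 in the peak chrX:444060-444333 with a signal of 556 and rank 1688. In relative signal it reached 5.55, 5.09 and 8.59, at ranks 2512, 2021 and 1176. Replicate 3 was highest here, and the other two were close to each other. The summit at 448480 in the peak chrX:448338-448615 had 6.83, 4.38 and 6.49. The summits at 425739 and 446216 had means of 3.14 ± 0.487 and 3.47 ± 0.485 (SD, n = 3), with a smaller spread than any summit of ac. Together, 3 of these summits lay within 4.30 kb, from 444181 to 448480. The space between ac and sc, 25.1 kb long, had 3 summits, of which only that at 384335, with 2.60, 1.06 and 1.67 and held by 1 replicate list, was outside the ac window. The space between sc and l(1)sc, 12.2 kb long, had only the summit shared by both genes.

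The gene ase (FBgn0000137, chrX:460747-463176, plus strand), whose product acts in neural precursors after their selection, had 1 summit, 7815 bp upstream in the peak chrX:452813-452994. Its signal of 307 ranked 3585, and its relative signal was 4.25, 1.82 and 3.89 at ranks 3403, 7383 and 3510. Replicate 2 was low and fell just outside its 7248 strongest candidates, while the other two held the summit. No summit lay within 10 kb to the right of ase, where no pooled candidate was found either.

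**Figure D3:**
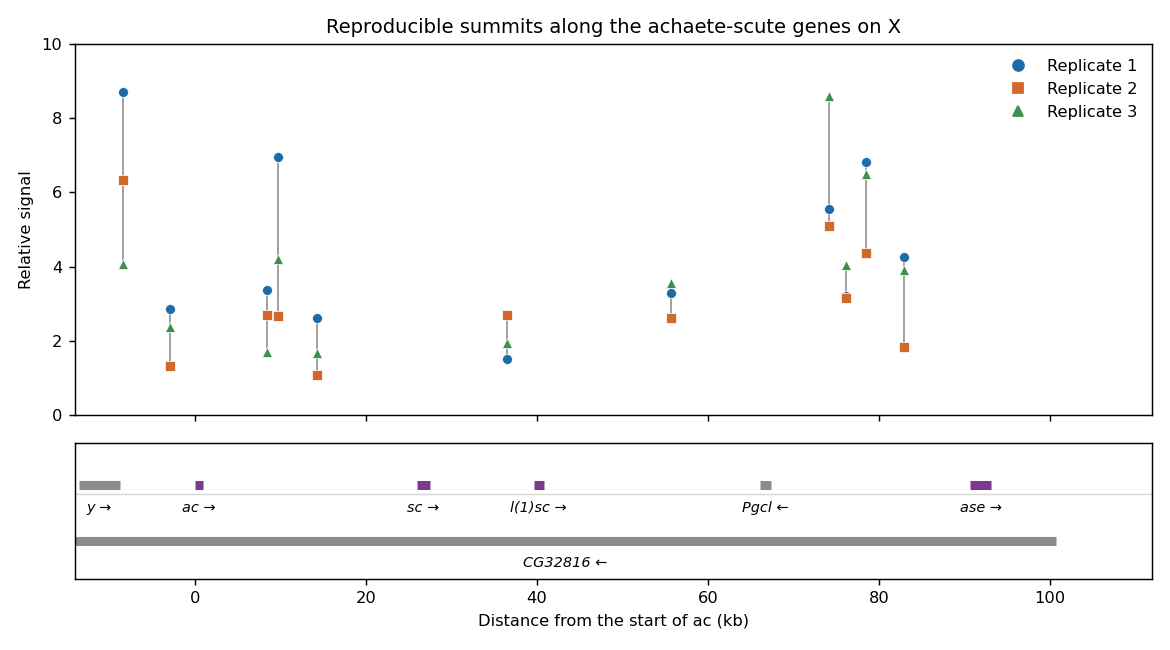
Relative signal of the reproducible summits (points per replicate) against the distance from the start of ac in kb, above a map of the genes of the complex on X. The strongest summits of the row lie left of ac and in the space between l(1)sc and ase, and none lies in the body of ac, sc, l(1)sc or ase.

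The gene ato (FBgn0010433, chr3R:8278052-8279274, plus strand), the proneural gene of chordotonal organs and of the founder photoreceptors of the eye, had no reproducible summit within 10 kb. The nearest lay 13187 bp away, at 105 bp from a TSS of Mcm2, which encodes a subunit of the replicative helicase, with a signal of 469 and rank 2146. Within the 10 kb flanks there was 1 pooled candidate, 1963 bp downstream of the start of ato, at rank 16691. Only replicate 3 had a candidate there, at rank 19243.

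The gene amos (FBgn0003270, chr2L:18596136-18596921, minus strand), the proneural gene of olfactory sense organs, had a single summit, which was the strongest at any of the 9 genes. It lay 8206 bp upstream of amos in the peak chr2L:18604929-18605333, but 105 bp from a TSS of CG10413, whose promoter it was annotated to. Its signal of 1837 ranked 139, and its relative signal was 20.8, 20.2 and 23.8 at ranks 254, 125 and 127. The 3 replicates lay close together, with a coefficient of variation (CV) of 8.90%. A higher strongest summit within 10 kb was found at 609 of the 13945 genes, or 4.37%. Assigned by nearest TSS, amos would have no summit.

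The gene sens (FBgn0002573, chr3L:13396228-13401125, minus strand) had 2 summits, both upstream and intergenic. The nearer, 5968 bp from its start in the peak chr3L:13407085-13407187, had a signal of 346 and rank 3123. Its relative signal was 5.43, 2.67 and 4.42, at ranks 2575, 4699 and 3013, and all 3 lists held it. The farther, at 9163 bp, had 3.22, 1.57 and 2.06 and was held by replicate 1 only, and it lay 2165 bp from a TSS of CG10222. The nearer summit was also closer to a TSS of CG10222, at 5360 bp, than to that of sens. Assigned by nearest TSS, sens would have no summit. Just outside the reproducible list, the candidate 2072 bp upstream of sens had rank 8066 and a pooled relative signal of 1.98. Replicate 1 had it at rank 5705, replicate 2 only at rank 23808 and replicate 3 at rank 11378. At 34 bp from the sens TSS lay a weak candidate of rank 14693 that had no counterpart in replicate 2. The gene sat at the edge of a stretch of 139 kb without a reproducible summit. Of the gaps between neighbouring summits in the genome, each counted once, 1.17% were longer. A long gap is more likely to hold a given gene, so this share cannot show unusual emptiness at sens.

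The gene da (FBgn0267821, chr2L:10388105-10393228, plus strand), which encodes the dimer partner of the proneural proteins, had 3 summits, all at promoters. The summit at its own promoter lay 87 bp upstream of the TSS in the peak chr2L:10387813-10388222, with a signal of 200.5 and rank 5636. Its relative signal was 4.18, 1.84 and 1.50, at ranks 3459, 7271 and 10187, and only replicate 1 held it. The da promoter summit was therefore weak and carried mainly by 1 replicate. The summit 1595 bp upstream, in the peak chr2L:10386364-10386565, lay 152 bp from the TSS of mRpS7, a mitochondrial ribosomal protein gene. The replicate values were 9.18, 2.04 and 3.19, at ranks 1259, 6473 and 4507. Replicate 1 stood apart here, and the CV of 79.8% was the highest among the 22 summits. The summit 6039 bp upstream, in the peak chr2L:10382009-10382172 at the promoter of CG5096, had 2.46, 4.43 and 4.04. Here replicate 1 was lowest.

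The gene emc (FBgn0000575, chr3L:749400-753492, plus strand), the inhibitor of the group, had the most summits of the 9 genes: 10 within its window, 8 of them held by all 3 replicates. This is 4.15 summits per 10 kb, against a median of 0.444 over all protein-coding genes. More summits were found at 103 genes (0.739%), and 145 genes had as many or more (1.04%). The gene hng3 spans emc, so the summits cannot be given to either gene by position alone.

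The strongest emc summit lay 2857 bp upstream in the peak chr3L:746347-746730, in an intron of hng3, with a signal of 1294 and rank 384. The nearest TSS to this summit was that of tRNA:iMet-CAT-1-3, at 2749 bp. The replicates gave a relative signal of 16.6, 14.4 and 14.8 at ranks 441, 311 and 431. The replicates lay close together, with a CV of 7.69%, and every value was higher than that of any other emc summit. Downstream, beyond the end of emc, lay 2 intergenic summits of middle strength. Both were closer to a TSS of hng3, at 4869 and 7011 bp, than to that of emc. The nearer, 10958 bp from the start of emc in the peak chr3L:760234-760497, had 5.69, 6.01 and 6.78. The farther, at 13100 bp in the peak chr3L:762365-762667, had 5.89, 5.10 and 9.94, at ranks 2326, 2012 and 916. Their values overlapped, and replicate 3 stood apart at the farther summit.

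The other 7 emc summits were weak, with mean relative signals from 2.15 to 2.76. The promoter summit lay 40 bp downstream of the emc TSS, in the 5′ UTR, in the peak chr3L:749404-749506, with a signal of 220 at rank 5151. The replicates gave a relative signal of 2.71, 2.38 and 2.41, and the 3 replicates hardly differed. The summit in the emc intron, 2490 bp downstream of the TSS, had 2.37, 2.03 and 3.30. Upstream, the summits at 902 and 2138 bp had means of 2.75 ± 0.559 and 2.76 ± 0.493 (SD, n = 3). The summit at 3708 bp had 2.91, 1.75 and 1.78 and was held by replicate 1 only. The summit at 7470 bp had 1.34, 2.14 and 3.55 and was held by 2 replicates. The summit at 9749 bp, 302 bp from a TSS of hng3, had 2.55, 2.26 and 2.48, with the lowest CV of the 22 summits at 6.16%. It also lay nearest to the outer limit of the emc window.

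**Figure D4:**
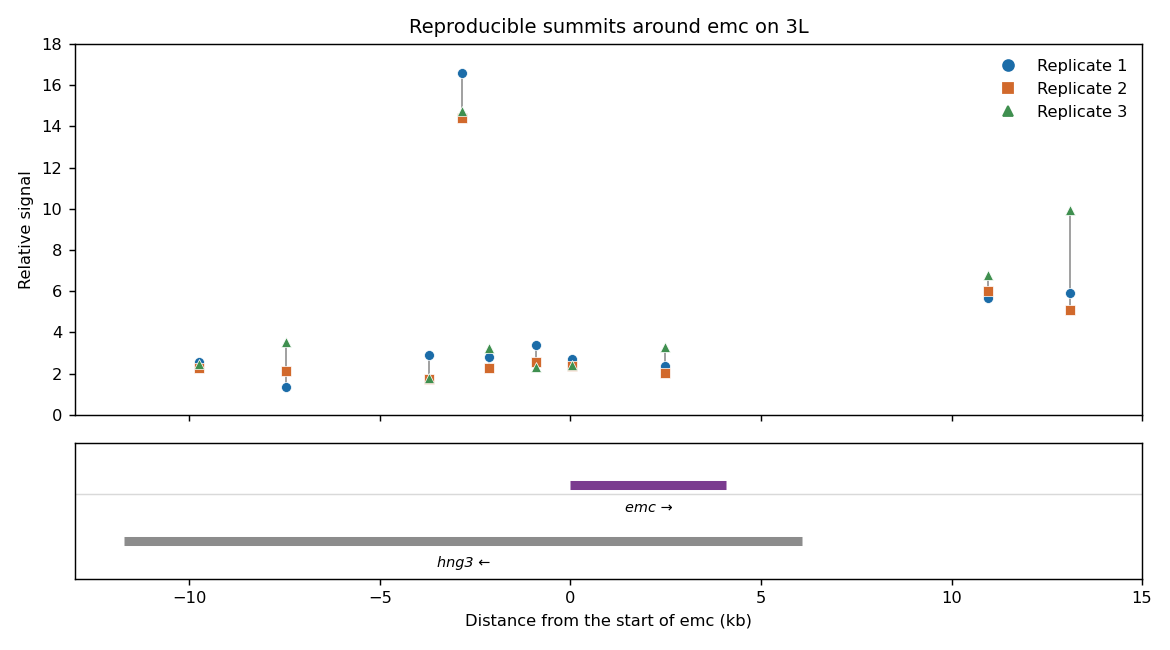
Relative signal of the reproducible summits (points per replicate) against the distance from the start of emc in kb, above a map of emc and hng3 on 3L. The summit 2857 bp upstream lies between 14.4 and 16.6, the pair downstream between 5.10 and 9.94, and all others below 4.

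Over the 22 summits, 14 (63.6%) were held by all 3 replicate lists, against 66.7% of all 7248 reproducible summits. A further 4 were held by 2 lists and 4 by 1, and all 22 had a candidate within 200 bp in each full list of 30000. Their median rank was 4836.5, against 3624.5 for the whole list, and their median signal was 233 against 304. The amos summit and the strongest emc summit, 2 of the 22, were among the top 10% of the list, a share close to that of the cut itself. By position, 6 were promoter summits (27.3%, against 27.1% of all), 12 were intronic (54.5% against 48.1%) and 4 intergenic (18.2% against 21.2%), and none lay in an exon outside a promoter. Only 2 of the 6 promoter summits were at a promoter of a listed gene, and the others belonged to CG5096, mRpS7, CG10413 and hng3. The CV over replicates had a median of 31.5%, against 25.2% over the 6782 reproducible summits found in every full list. Replicate 1 gave the highest relative signal at 14 of the 22 summits and replicate 2 the lowest at 14. Where a replicate list did not hold a summit, the replicate's own rank ranged from 7271 to 11160, against the list length of 7248.

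E-boxes were searched because the proneural proteins bind them. On either strand, CANNTG occurred in 15 of the 22 windows of 200 bases (68.2%), against 58.7% of all summit windows and 65.7% of windows 500 bp to the side of all summits. The E-box form CAGGTG occurred in 2 of the 22 windows (9.09%), against 3.95% of all summit windows and 7.26% of flanks. The forms CAGCTG (6.50% of all summit windows) and CACGTG (1.45%) occurred in none. These 3 forms are part of CANNTG. In the printed windows, the sens window held 3 E-boxes and the strongest emc window 2. The farther downstream emc window, the window of sc and l(1)sc and that of ase held 1 each. The nearer downstream emc window, the ac window and the window between l(1)sc and ase held none. The other words searched on both strands were GAGAG, in 4 of 22 windows (23.5% of all), GATAA in 8 (38.6%), AAATCA in 8 (25.4%), TATCGATA in 1 (0.952%) and GTGGGAA in 1 (2.24%). A word in a window is a description of its letters and not a binding site.

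The 7-letter words most over-represented at all summits of the series against their flanks were led by CAGTGTA (8.02% of summit windows and 1.70% of flanks) and CACTGAG (7.04% and 1.61%). Both strands were counted, and several of the 10 words are shifted copies of each other, such as CACTGAG and the word ACTGAGA. At least 1 of the 10 occurred in 8 of the 22 windows (36.4%), against 36.1% of all summit windows and 15.4% of flanks. At emc they stood in the windows of 6 of the 10 summits. These were the strongest summit (AGTGTAG), both downstream summits, and the weak upstream summits at 9749 bp (CACAGTG), 7470 bp and 2138 bp (AGGGTAT in both). The window of the nearer downstream summit has CAGTGTA on the minus strand. In the space between l(1)sc and ase they stood in the strongest window and in that of the summit at 448480. At the listed genes other than emc, a word stood in the windows of the ac summit 2873 bp upstream (CACAGTG) and of the da summit at the CG5096 promoter (AGTGTAG). The printed windows of ac, sc and l(1)sc, ase and sens hold none of the 10 words. The windows of the farther emc summit and of the strongest summit between l(1)sc and ase share the 9-letter word GCACTGAGA, in opposite orientation. This word was looked up after the windows were seen and occurred in 173 of the 7248 windows (2.39%) and in 0.166% of flanks. The GC content of the 22 windows was 35.1 ± 6.83% (SD over windows), with a range from 26.5 to 50%, against 35.3 ± 7.15% for all summits.

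Other genes of the same pathway were read in the same way, from lists chosen with earlier results of these data known. Of the regulators that prepare the pattern of proneural expression, 12 of 13 listed genes were matched, and 11 of the 12 had a summit in the body or within 10 kb, with 3 at a promoter (91.7% and 25%, against 61.1% and 15.4% of all protein-coding genes). The strongest summits were at ush, which encodes a cofactor of the GATA factor Pannier (57.6 ± 6.38, nearest TSS cbt), and dpp, the BMP ligand gene (28.0 ± 2.69). Next were tup, a LIM-homeodomain gene (14.5 ± 2.05), and chn, a zinc finger gene (12.2 ± 2.48, each relative signal with SD, n = 3). The summit of ush, at rank 5 of the list, is far above any at the 9 genes.

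Of the genes that act in the sense organ precursor, 19 of 20 were matched and 17 of the 19 had a summit, 6 of them at a promoter (89.5% and 31.6%, against 61.1% and 15.4% of all genes). The strongest summits were at neur, which encodes a ubiquitin ligase of the Notch pathway (26.1 ± 3.76), and Rfx, a gene of ciliated sensory neurons (22.5 ± 4.86, nearest TSS jumu). The genes dpn, a bHLH repressor gene of neural stem cells (19.9 ± 0.596, at the promoter of pnut), and ct, a homeobox gene of external sense organs (15.3 ± 3.60), followed (each relative signal with SD, n = 3). For Rfx and dpn the nearest TSS belonged to another gene, as at amos. The listed genes that were not matched are not in these counts. Matching was by symbol, so an unmatched gene is not shown to be missing from the annotation. The precursor gene that was not matched, Dl, is annotated as Delta and had 3 summits in its body or within 10 kb.

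The Enhancer of split (E(spl)) complex on 3R encodes bHLH repressors that are targets of Notch and act against the proneural genes, and all 7 of these neighbouring genes had a summit, 4 of them at a promoter (57.1%). Of all genes, 61.1% had a summit and 15.4% had it at a promoter. The complex, from 25997621 to 26041008 on 3R, held 11 summits in 43.4 kb, or 2.54 per 10 kb, against 0.966 from ac to ase. The median signal of these summits was 479 against 285. The strongest summit of the achaete-scute row, at 556, was below the strongest of the E(spl) complex, at 1822. The latter was shared by E(spl)mgamma-HLH and E(spl)mbeta-HLH (21.2 ± 5.33), and E(spl)m7-HLH and E(spl)m8-HLH shared a summit at the promoter of gro, the gene of the Groucho corepressor (18.8 ± 1.51, each relative signal with SD, n = 3).

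Among 17 other bHLH genes, 10 had a summit (58.8%, against 61.1% of all genes) and 4 had it at a promoter (23.5% against 15.4%). The strongest were at SREBP, the gene of the lipid synthesis regulator, found in replicates 2 and 3 only with 10.9 and 11.3, and at crp (10.3 ± 0.521). Next were HLH54F (9.67 ± 2.40) and twi, a mesoderm gene (9.02 ± 2.80, each relative signal with SD, n = 3). The median density was 0.481 summits per 10 kb over the 9 genes, 0.752 over the prepattern regulators, 0.697 over the precursor genes, 2.39 over the E(spl) genes and 0.433 over the other bHLH genes. Over all protein-coding genes it was 0.444. Neighbouring genes share summits, so genes of a complex do not count as separate observations.

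**Figure D5:**
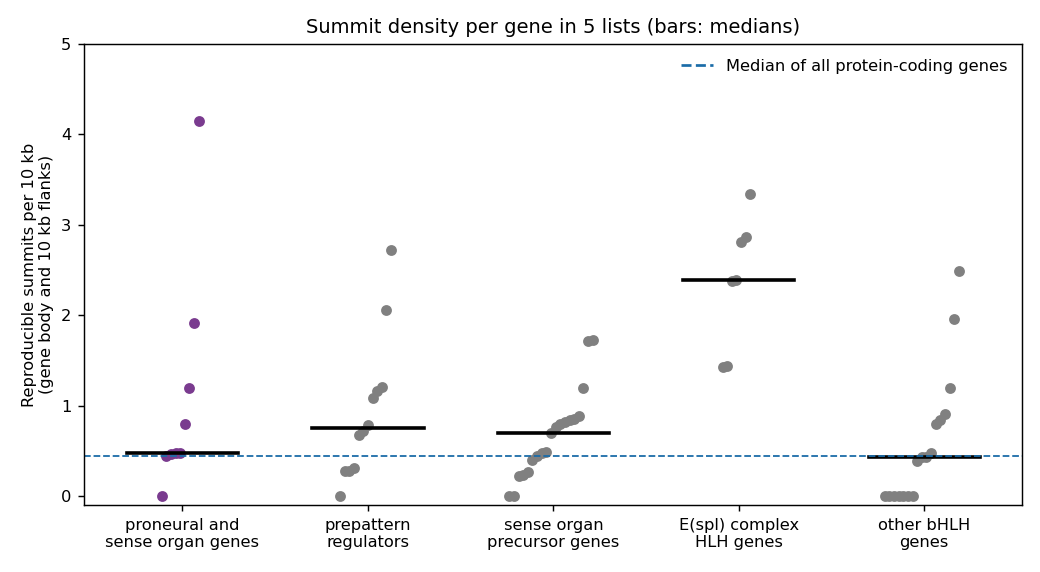
Reproducible summits per 10 kb (gene body and 10 kb flanks) for each gene of 5 lists, with a bar at each list's median and a dashed line at the median of all protein-coding genes. The 9 genes have a median of 0.481 near the dashed line at 0.444, with emc alone at 4.15.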

How the data were processed

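Peak lists of 3 biological replicates of CG10669-GFP ChIP-seq were used. Per the text files deposited with the samples, the authors made each replicate's list of 30000 candidates from that replicate's alignments and a shared control file. A pooled list of 30000 came from the pooled alignments, and the reproducible list of 7248 from the irreproducible discovery rate step, all on dm6. The name of the peak caller is not given in the sources used here, and likewise the aligner and the threshold. Each peak's signal is the authors' deposited value, on a scale of its own in each list. The deposited −log10 q-value was tied at 4.24 for all reproducible peaks and was not used for ranking. The reproducible list was checked to be the 7248 pooled candidates with the highest signal.

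Signal was divided by the median candidate signal of its list. A replicate's value is that of the nearest candidate summit within 200 bp, and a replicate held a summit if 1 of its 7248 strongest candidates lay within 200 bp. Genes came from Ensembl release 115 and sequence from RefSeq Release 6. Summits at most 500 bp from a protein-coding TSS were called promoter summits, and the rest were classed in order as 5′ UTR, then coding exon, then 3′ UTR, then any other exon, intron and intergenic. The 7-letter words were ranked by the ratio of summit windows to windows centred 500 bp away, among words in at least 100 summit windows. With 1 condition no test was run, and all shares are descriptions. The genes and lists were chosen with earlier results of these data known. The text names the 9 genes, every reproducible summit in their windows, the nearest gene for part of these summits, and of each other list the 4 genes with the highest signal. The older symbol of SREBP was matched through RefSeq. Python 3.11.15, numpy 2.4.6, pandas 2.3.3 and matplotlib 3.10.9 were used, and the counting of summits, replicates and words was tested on simulated data.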

Additional observations from a re-analysis of the deposited data

How the results depend on the processing

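The 22 summits at the 9 genes became 10 with flanks of 5 kb, 42 with 20 kb, 2 in gene bodies alone, 10 in the stronger part of the list, 14 among summits held by all 3 replicates and 67 among all pooled candidates. Leaving out 1 replicate was read as the reproducible summits held by both other replicate lists, a criterion that the full count does not carry, and gave 15 to 16; these counts do not measure the effect of the omission alone. The 8 genes with a summit became 4 with 5 kb (45.3% of all genes), 1 in the gene body, 5 among summits held by all 3 replicates (49.3%) and 5 to 6 among those held by both lists without 1 replicate (51.4 to 54.5%). They were 9 with 20 kb (79.4%) and among all candidates (82.2%), and 6 in the stronger part of the list (46.7%). The 2 genes with a promoter summit became 0 in the stronger part of the list (9.80% of all genes), 1 among summits held by all 3 replicates (10.4%), 4 among all candidates (30.5%) and 1 among those held by both lists without replicate 1, 2 or 3 (11.2 to 12.0%). The 14 summits held by all 3 replicates became 22 when each list was taken whole. The 9 summits from ac to ase became 4 in the stronger part of the list, 5 among those held by all 3 replicates and 40 among all candidates outside the gene bodies. The 15 windows with an E-box became 7 and 9 in those same 2 stricter sets, which hold fewer windows. The mean relative signal moved most at the da summit near mRpS7, from 4.81 to 2.62 without replicate 1. Dividing by the median of the 7248 strongest candidates in place of all candidates lowered every relative signal, to a range from 0.470 to 5.84, with amos at 5.84 and the strongest emc summit at 4.13. It divides each list by a constant, so the order is nearly fixed by construction. No paired analysis was possible because there was 1 group. Depth was unknown, so summits that were missing are below the list's limit and not shown to be absent.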

Other observations

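The listed genes also differed in how empty their surroundings were. The stretch without a reproducible summit that holds the gene was 11.4 kb at ac, 16.2 kb at da, 19.2 kb at l(1)sc, 22.2 kb at sc, 37.4 kb at amos, 41.1 kb at ase, 69.4 kb at ato and 139 kb at sens, while emc holds 2 summits itself. The median gap between neighbouring summits in the genome was 5.32 kb, and 10% of gaps were longer than 42.8 kb. These figures count each gap once, while a longer gap is more likely to hold a given gene. They therefore cannot show whether the surroundings of these genes are unusually empty. Pooled candidates of any strength, the reproducible summits included, numbered 22 at emc with 10 reproducible, 13 at ac with 4, 10 at sens with 2 and 10 at sc with 1. They numbered 6 at l(1)sc, 4 at ase and 2 at amos, each with 1 reproducible, and 1 at ato with 0. At da all 3 candidates were reproducible. From ac to ase there were 41 pooled candidates for 9 reproducible summits. In the whole pooled list, 7248 of 30000 candidates were reproducible, and the share from ac to ase was close to this.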
